A study of Homo sapiens with 2 samples.

Results

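CAD, UMPS, CTPS1, PPAT, PAICS, GART, ATIC, PFAS, IMPDH2 and GMPS encode enzymes that build pyrimidine and purine nucleotides from simple precursors. MYC binding at their promoters was read from ChIP-seq of 1 MYC library, for which the authors deposited a list of 17659 peaks. A peak was assigned to a gene when its summit lay within 5 kb of the GRCh37 start site given for that gene with the gene list, and a gene without a peak would have stayed in the list. All 10 genes had at least 1 peak, and 14 of the 17659 peaks were assigned. PPAT and PAICS start 105 bp apart on opposite strands and share the same peaks, so the 10 genes stand for 9 separate loci.

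The MYC ChIP library and its input library came from TET21 cells, a subclone of the human neuroblastoma line SH-EP known for a doxycycline-repressible MYCN transgene. All cells expressed full-length (WT) MYC ectopically and were kept in 1 µg/mL doxycycline for 7 days before fixation in 1% formaldehyde for 10 min. The antibody was the rabbit polyclonal N-262 made in the submitters' laboratory, used at 2 µg, and the labels do not say whether it tells ectopic MYC from the cells' own. There was 1 library of each kind and no library from cells without ectopic MYC, so values below have no replicate error and no test between conditions was possible. The 95% intervals on pileups and folds cover counting error only. Those on shares and on medians treat peaks or genes as independent draws.

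In purine synthesis, PPAT catalyses the committed step, and GART, PFAS, PAICS and ATIC carry the ring through to inosine monophosphate (IMP). IMPDH2 and GMPS then convert IMP to guanosine monophosphate (GMP). In pyrimidine synthesis, the multifunctional enzyme CAD opens the route, UMPS completes uridine monophosphate and CTPS1 makes CTP from UTP. MYC binds DNA as a dimer with MAX, with a preference for E-boxes, above all the letters CACGTG. Nucleotide synthesis genes are among its known targets in proliferating cells, and the hamster cad gene with an E-box beside its start site is a classic example.

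Promoter sequences are shown first for the 4 loci on the route to IMP, for CAD, and for UMPS, which had the least significant best peak. They come from RefSeq on GRCh38.p14, which is not the build of the peaks. They therefore show the promoter of each gene and not the bases under a summit, and the RefSeq start need not be the start site used for the peaks. Of the 10 genes, 9 matched a RefSeq promoter window of 250 bases before to 50 after the start, and IMPDH2 did not. Each sequence is printed 5′ to 3′ on the gene's strand.

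The ATIC promoter is shown for its E-boxes, CACGTG, in capitals. The longer run is chr2:215311809-215312058 (plus strand), which ends at the base before the RefSeq start. The shorter run is chr2:215312078-215312103, and its E-box begins at base 30 after the start.
ATIC upstream: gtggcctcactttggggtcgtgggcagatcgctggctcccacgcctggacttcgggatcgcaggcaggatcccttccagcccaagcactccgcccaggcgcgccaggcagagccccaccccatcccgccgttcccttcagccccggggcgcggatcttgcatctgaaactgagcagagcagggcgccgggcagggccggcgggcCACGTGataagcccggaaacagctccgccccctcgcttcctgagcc
ATIC downstream E-box: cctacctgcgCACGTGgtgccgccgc

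The bidirectional PPAT and PAICS promoter is shown as the 136 bases between the 2 RefSeq starts, chr4:56435616-56435751 (minus strand, the strand of PPAT), with GC boxes, GGGCGG on either strand, in capitals. The shorter run is chr4:56435782-56435807 (minus strand), with its E-box CACGTG in capitals. This E-box lies 182 bases upstream of the PPAT start and begins at base 41 after the PAICS start.
PPAT to PAICS: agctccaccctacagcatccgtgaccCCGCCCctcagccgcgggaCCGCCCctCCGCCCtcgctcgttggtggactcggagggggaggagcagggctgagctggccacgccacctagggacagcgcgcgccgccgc
PPAT and PAICS E-box: cggagatttcCACGTGcagcaaatac

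The CAD promoter is shown from the end of its upstream neighbour ATRAID to the CAD start, chr2:27217184-27217368 (plus strand), with GGGCGG on either strand in capitals. It is the promoter of the second strongest peak and holds neither CACGTG nor the variants CACGCG and CATGTG. The search ended 50 bases after the start, before the distance at which the CAD summit lay, so bases further downstream were not searched.
CAD: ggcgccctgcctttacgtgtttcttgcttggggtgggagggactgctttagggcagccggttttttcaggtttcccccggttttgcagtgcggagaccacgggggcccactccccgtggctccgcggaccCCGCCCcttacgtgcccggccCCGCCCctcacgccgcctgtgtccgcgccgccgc

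The GART promoter is shown as the 145 bases between the RefSeq starts of GART and of its divergent neighbour SON, chr21:33542893-33543037 (minus strand, the strand of GART), with CCAAT on either strand in capitals.
GART to SON: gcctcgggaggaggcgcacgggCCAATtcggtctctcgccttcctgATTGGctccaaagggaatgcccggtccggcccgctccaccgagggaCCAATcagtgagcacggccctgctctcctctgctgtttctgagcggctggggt

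The PFAS promoter is shown only around its variant E-box CACGCG, in capitals, which begins 17 bases before the RefSeq start (chr17:8249262-8249287, plus strand).
PFAS: gcccgcggcgCACGCGgatgacgtaa

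The UMPS promoter, of the gene with the least significant best peak, is chr3:124730202-124730451 (plus strand). Its only match to the general E-box CANNTG is in capitals and reads CACCTG.
UMPS: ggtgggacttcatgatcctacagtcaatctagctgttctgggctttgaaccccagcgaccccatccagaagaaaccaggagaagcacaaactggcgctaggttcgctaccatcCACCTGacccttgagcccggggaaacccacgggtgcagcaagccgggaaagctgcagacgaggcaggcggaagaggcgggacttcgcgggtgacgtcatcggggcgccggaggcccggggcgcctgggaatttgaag

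The canonical E-box CACGTG was present in 3 of the 9 matched windows (ATIC, PPAT and PAICS), but the PPAT and PAICS windows hold the same one. It was present in 8.34% of 22199 windows of protein-coding genes and in 7.26% of all 35116 windows. ATIC held 2 copies, and 2 or more were present in 0.851% of coding windows. CACGCG was present in 1 of 9 (PFAS), against 14.3% of coding windows, and CATGTG in 1 of 9 (also PFAS), against 8.93%. CANNTG, which includes CACGTG and CATGTG, was present in 6 of 9, against 65.1%. It was absent from the windows used for CAD, GART and GMPS, whose best folds of 22.8, 18.8 and 13.1 exceeded the 6.06 at UMPS. Their best summits lay 61, 880 and 87 bp downstream of the start sites used for the peaks, beyond the reach of these windows. Whether CANNTG lay under those summits was therefore not tested. The window at a second RefSeq start of GART, 775 bp downstream, held 1 CANNTG and is not counted here. GGGCGG was present in 7 of 9, against 56.3%, and CCAAT in 2 of 9, against 34.7%. Both strands were searched, and windows that overlap or belong to the same gene are counted separately in these shares. The 9 windows are too few, and share too much sequence at PPAT and PAICS, for these shares to set the genes apart.

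MYC summits lay close to the start sites. A summit lay within 250 bp of 9 of the 10 start sites, against 0.295% of the bases on chromosomes 1 to 22 and X. A summit lay within 5 kb of all 10, against 4.63% of those bases. Start sites of other genes were not placed on the peaks here, so this background covers the genome and not promoters in general. CTPS1 was the exception at 250 bp, with its summit 666 bp downstream, and by 1 kb all 10 were included. Of the 10 start sites, 9 lay inside a peak, with PPAT and PAICS inside the same one. The share of all bases that lie inside peaks was not computed.

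**Figure D1:**
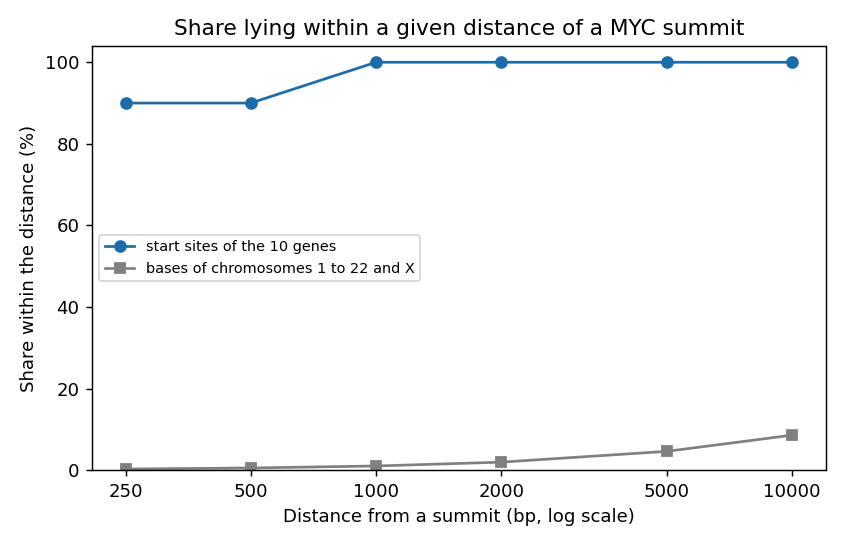
Share (%) of the 10 start sites (circles) and of the bases of chromosomes 1 to 22 and X (squares) that lie within a distance of 250 to 10000 bp from a MYC summit (log axis). The start sites stand at 9 of 10 at 250 bp and 10 of 10 from 1000 bp, while the share of bases reaches 8.6% at 10000 bp.

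Counting the most significant peak of each gene, the summit was downstream of the start in 9 of 10 genes, and PAICS, which shares its peak with PPAT, was the exception. The median distance was 101 bp (order-statistic 95% interval 54 to 666 bp). This interval treats the 10 genes as independent draws, although they were chosen and PPAT and PAICS share a peak. The best summits of UMPS, PFAS, IMPDH2, CAD, GMPS, ATIC and PPAT all lay from 27 to 127 bp downstream. All distances, that of CTPS1 included, depend on the start sites used. RefSeq on GRCh38.p14 places the PPAT and PAICS starts 137 bp apart, against 105 bp here. The strand of IMPDH2 is from general knowledge of the gene, and the others from RefSeq.

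**Figure D2:**
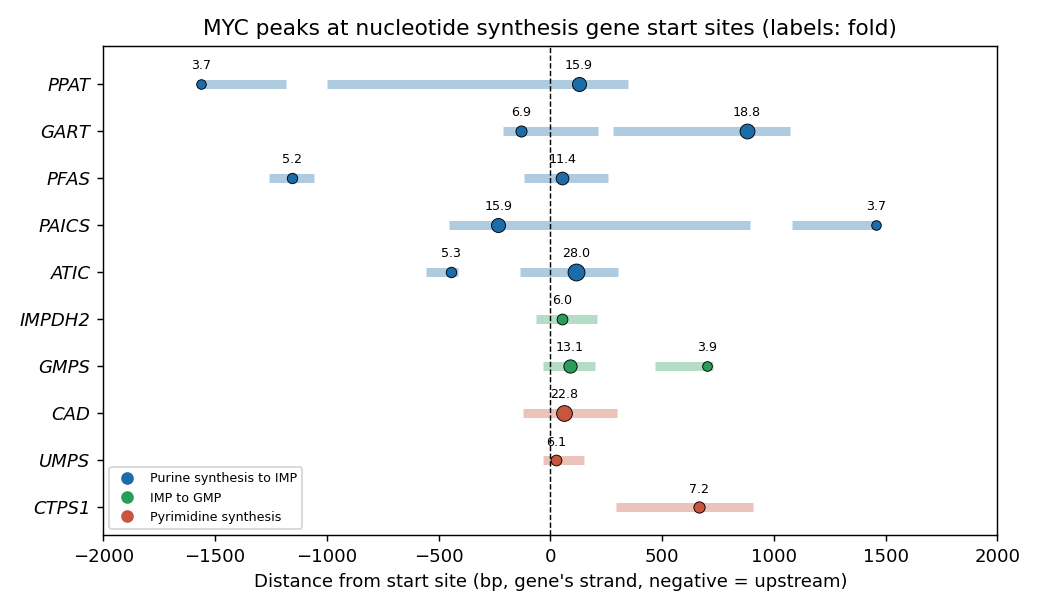
Peaks at each start site, drawn to scale in bp along the gene's strand, with bars for the extent of each peak and circles for its summit (circle size grows with fold, which is also printed). All peaks lie within 1563 bp of the start site, and the PPAT and PAICS rows show the same peaks from opposite strands.

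The strength of a peak is given as the authors' deposited fold over the caller's local background, and as the pileup, the count of ChIP fragments at the summit, recovered from the fold and −log10 p. Across the 14 peaks the pileup ran from 8 to 64 fragments with a median of 21.5, against 13 in the whole list. The median fold was 7.05, against 6.40 in the whole list. Of the 14 peaks, 6 had a fold of at least 10 (42.9%, Wilson 95% interval 21.4 to 67.4%), against 15.4% of all peaks. At least 20 was seen at 2 (14.3%, 4.01 to 39.9%), against 1.43%. The Wilson interval treats peaks as independent, although the 5 weaker peaks lie beside stronger ones. Whether promoter peaks at large are this strong was not tested.

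The enzymes that lead to IMP had best folds from 11.4 to 28.0 at their 4 loci. Those of the GMP branch had 13.1 (GMPS) and 6.04 (IMPDH2), and those of pyrimidine synthesis 22.8 (CAD), 7.21 (CTPS1) and 6.06 (UMPS). The groups have 4, 2 and 3 loci and were not compared by a test. Each fold is over the peak's own local background, and by pileup PFAS (33 fragments) and CTPS1 (30) were close. ADSL, the remaining enzyme of the route to IMP, and DHODH, between CAD and UMPS, were not analysed here at the level of peaks.

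**Figure D3:**
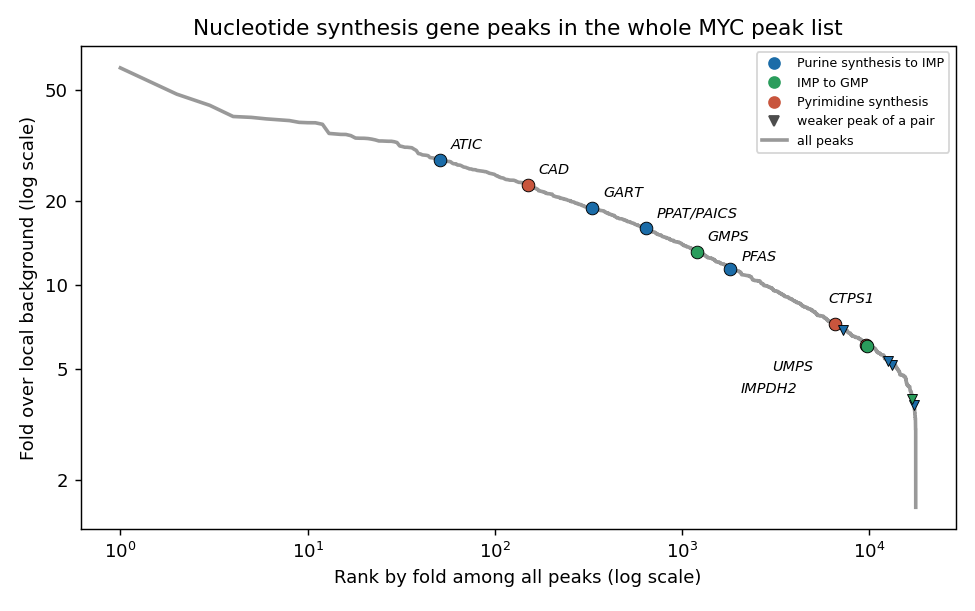
Fold over the local background against rank by fold for all 17659 peaks (grey line, both axes log), with the 14 peaks at nucleotide synthesis genes marked and coloured by route. ATIC ranks 51 and CAD 150, 6 loci have a fold above 10, and UMPS, IMPDH2 and all but 1 of the weaker peaks (triangles) fall below the list's median fold of 6.40.

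ATIC, which carries out the closing steps of IMP synthesis, had the strongest peak of the 10 genes. At chr2:216176542-216176983 its summit, 115 bp downstream of the start, held 64 fragments (95% Poisson interval 49.3 to 81.7) over a background of 1.32. Its fold was 28.0 (21.7 to 35.7 from counting error in the pileup alone), rank 51 of the list, and its −log10 p of 83.6 ranked 38 of the list and 3 of 1174 peaks on chromosome 2. A minor peak of 142 bp, chr2:216176124-216176265, had its summit 443 bp upstream, with 8 fragments (3.45 to 15.8) and a fold of 5.35. ATIC thus had a strong and a weak peak, the fold of the strong one 5.24 times that of the other. On GRCh38.p14 the noncoding RNA gene LOC124907975 starts 87 bp upstream of ATIC on the opposite strand, so these peaks cannot be assigned to ATIC alone. Only 3 peaks lay within 500 kb of the ATIC start, both of these included, and the next was 389 kb away.

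PPAT, the amidotransferase that commits the cell to purine synthesis, and PAICS, which adds carboxylate and aspartate to the growing purine, shared a very wide peak. It spanned 1344 bp at chr4:57301456-57302799, rank 8 of the list by width, and covered both start sites. Its summit lay 127 bp downstream of the PPAT start and 232 bp upstream of the PAICS start, with 36 fragments (25.2 to 49.8) over a background of 1.32 and a fold of 15.9 (11.3 to 21.9). This was rank 556 by −log10 p, and 14 of 650 peaks on chromosome 4. A weaker peak followed at chr4:57302986-57303376, 1458 bp downstream of the PAICS start, with 10 fragments (4.80 to 18.4) and a fold of 3.69, rank 17239. The binding cannot be assigned to either gene, since a single peak covers both starts.

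GART, a trifunctional enzyme of the same route, had its stronger peak further into the gene and a weaker peak over its start. At chr21:34914128-34914918 the summit was 880 bp downstream of the start, with 33 fragments (22.7 to 46.3) over a background of 0.806 and a fold of 18.8 (13.1 to 26.2). It ranked 331 by fold in the list and 10 of 200 peaks on chromosome 21 by −log10 p. RefSeq lists a second GART start 775 bp downstream of the one used for the sequence above, on the GRCh38.p14 assembly. The start site itself lay in a weaker peak, chr21:34914984-34915410, with its summit 131 bp upstream, 15 fragments (8.40 to 24.7) and a fold of 6.90. On GRCh38.p14 the divergent gene SON starts 146 bp upstream of GART, so this weaker peak cannot be assigned to either gene.

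PFAS, the synthase that transfers the glutamine amide to form FGAM, had a peak over its start. At chr17:8152477-8152852 the summit was 54 bp downstream, with 33 fragments (22.7 to 46.3) over a background of 1.98 and a fold of 11.4 (7.96 to 15.9), rank 1809. The pileup equalled that of GART, and the lower fold went with a background of 1.98 against 0.806. A weaker peak at chr17:8151336-8151539 lay 1157 bp upstream, with 11 fragments (5.49 to 19.7) and a fold of 5.17. On GRCh38.p14 the gene record of CTC1 overlaps the upstream end of that of PFAS, so the weaker peak cannot be assigned to either gene. PFAS sat in a crowded region, with 39 peaks within 500 kb, of which its best ranked 4 by −log10 p.

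GMPS, which makes GMP from xanthosine monophosphate, had the stronger peak of the GMP branch. At chr3:155588292-155588525 the summit was 87 bp downstream, with 22 fragments (13.8 to 33.3) over a background of 0.750 and a fold of 13.1 (8.45 to 19.6), rank 1196. A weak peak at chr3:155588792-155589053, 701 bp downstream, had 8 fragments (3.45 to 15.8) and a fold of 3.88, rank 16956. Its −log10 p of 4.99 was the lowest of the 14. IMPDH2, the rate-limiting dehydrogenase of guanine nucleotide synthesis, had a single peak at chr3:49066668-49066940, with its summit 54 bp downstream. That summit held 21 fragments (13.0 to 32.1), nearly as many as GMPS, over a background of 2.64, and the fold was 6.04 (3.85 to 9.09), rank 9677.

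CAD, which carries out the opening reactions of pyrimidine synthesis, had the second strongest peak. At chr2:27440136-27440558 the summit was 61 bp downstream, with 58 fragments (44.0 to 75.0) over a background of 1.59. The fold was 22.8 (17.4 to 29.3), rank 150, and the −log10 p of 68.9 ranked 89 of the list and 6 of 1174 on chromosome 2. It was the strongest of 25 peaks within 500 kb by −log10 p. UMPS had a single narrow peak of 183 bp at chr3:124449181-124449363, with its summit 27 bp downstream, the closest to a start site of all 14. It held 13 fragments (6.92 to 22.2) over 1.31 and had a fold of 6.06 (3.43 to 10.0), rank 9635. CTPS1, the CTP synthetase, had a single wide peak of 612 bp at chr1:41445302-41445913, which did not reach the start site and had its summit 666 bp downstream. It held 30 fragments (20.2 to 42.8) over a background of 3.30, and its fold was 7.21 (4.94 to 10.2), rank 6560.

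**Figure D4:**
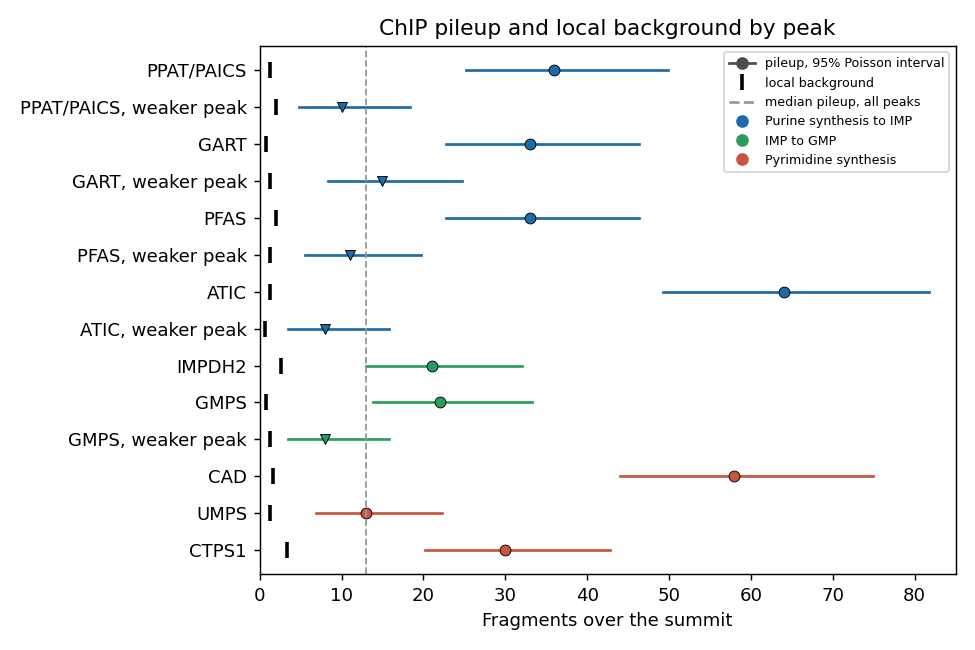
ChIP fragments over the summit (circles for the best peak of a locus, triangles for the weaker, bars for the 95% Poisson interval) and the local background (black ticks) for the 14 peaks, coloured by route. ATIC and CAD stand highest at 64 and 58 fragments, the 5 weaker peaks hold 8 to 15, and the dashed line marks the list's median of 13.

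The order of the best folds was ATIC, CAD, GART, PPAT with PAICS, GMPS, PFAS, CTPS1, UMPS and IMPDH2. The counting intervals of neighbours in this order overlapped at every step. These intervals take each background as exact. Those of ATIC, CAD, GART and the PPAT and PAICS peak lay wholly above those of CTPS1, UMPS and IMPDH2. The intervals of GMPS and PFAS overlapped CTPS1, UMPS and IMPDH2 as well as GART and the PPAT and PAICS peak. That of GMPS (8.45 to 19.6) also overlapped that of CAD (17.4 to 29.3). By pileup, CTPS1 (20.2 to 42.8) and IMPDH2 (13.0 to 32.1) overlapped GART (22.7 to 46.3) and the PPAT and PAICS peak (25.2 to 49.8). UMPS overlapped neither, and ATIC and CAD stayed above CTPS1, UMPS and IMPDH2.

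CTPS1 and IMPDH2 stood higher by fragments than by fold, and their local backgrounds were among the higher of the list. By pileup CTPS1 was at percentile 94.3 of the list and IMPDH2 at 84.1, but by fold at 62.8 and 45.2. Their backgrounds of 3.30 and 2.64 fragments were at percentiles 98.9 and 95.7 of the list. Both are small values with a counting error of their own, which was not estimated. Whether they differ from the 1.32 at ATIC and at PPAT with PAICS was not tested. Divided by the list's median background in place of their own, a choice made after seeing the values, their folds were 14.6 and 10.4, and 8 of the 14 peaks then had a fold of 10 or more, against 16.8% of all peaks. UMPS was unlike them, at percentile 50.9 by pileup and 45.4 by fold, and its fold on the median background was 6.59. Copy number, mappability and open chromatin under these peaks were not tested.

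Several of the peaks were wide. Of the 14 peaks, 3 (21.4%) were wider than 500 bp, against 6.82% of all peaks, and these were the best peaks of PPAT with PAICS, GART and CTPS1. The median width was 383.5 bp, against 226 bp in the list. The strongest peaks, of ATIC and CAD, were narrower, at 442 and 423 bp. A second summit within 5 kb was present beside 5 of the 9 best peaks (PPAT with PAICS, GART, PFAS, ATIC and GMPS). Over all peaks the share was 42.4%, but it counts both peaks of a pair. The 5 weaker peaks, left out of the 9, also have such a neighbour, so the shares are not of like units. In these 5 pairs the summits were 558 to 1690 bp apart. The stronger peak had 2.21 to 5.24 times the fold of the weaker, each fold taken over its own local background. The 5 weaker peaks had 8 to 15 fragments, and 4 of them lay below the list's median fold.

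Of the 14 peaks, 5 (35.7%, Wilson 95% interval 16.3 to 61.2%) were the most significant within 500 kb of their own summit, against 12.2% of all peaks, namely the best peaks of ATIC, CAD, GART, GMPS and PPAT with PAICS. This share depends on how many peaks a window holds. Within 500 kb of the start sites the number of peaks ran from 3 at ATIC and 4 at GMPS to 39 at PFAS. In these windows, at UMPS and CTPS1 the best peak ranked 5 of 10 and 5 of 11, and at IMPDH2 it ranked 11 of 30. A limit of 2 kb assigned the same 14 peaks, and a limit of 10 kb assigned 18. The farthest assigned summit lay 1563 bp from a start, and the nearest unassigned one 5487 bp, not far past the 5 kb limit. That unassigned peak, upstream of CAD at chr2:27434612-27435224, had 32 fragments and a fold of 13.2. On GRCh38.p14 the RefSeq starts of SLC5A6 and ATRAID lie 5009 to 5328 bp upstream of CAD. At IMPDH2 the nearest unassigned summit was 7053 bp downstream of its start.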

How the data were processed

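The data were 1 MYC ChIP library and 1 input library of TET21 cells. Per the submitters' processing notes, the authors' tools were STAR 2.5.2a, SAMtools 1.3, Picard 2.7.1, MACS2 2.1.0 and bedtools, with no role stated, on GRCh37. The authors deposited a filtered peak list with, for each peak, a score, a fold (a ratio over the local background), a −log10 p, a −log10 q and a summit offset. The filter is not given in the sources used here, and no library depth was used.

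Peaks were assigned by summit within 5 kb of the GRCh37 start site given for each gene. Pileup and background were recovered by trying each whole pileup from 3 to 699 against MACS2's fold, (pileup + 1) / (background + 1), and Poisson p. This matched the −log10 p of 100% of peaks within 0.001, and the procedure was also tested on simulated data. Shares have Wilson and pileups exact Poisson 95% intervals; intervals on folds take the background as exact. The genome background used the span from first to last peak of each chromosome. Motifs were searched in RefSeq promoter windows of GRCh38.p14, and no coordinates were converted. For genes with several windows the first was used, and for PAICS the nearest to PPAT.

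The genes were chosen, and the lists and alternatives written, with earlier results of these data known. All 10 genes are named by rule. Neighbouring genes, the comparison on the median background and the sequences shown were chosen after values were seen. Analyses used Python 3.11.15, pandas 2.3.3 and scipy 1.17.1.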

Additional observations from a re-analysis of the deposited data

How the results depend on the processing

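Over 6 results, 29 alternatives were checked for a count within 1.5 times or a value within the main result's 95% interval. The intervals were wide (6.06 to 22.8 for the median best fold), and several alternatives kept the same best peaks. Shares at other folds were judged by the interval of the share at a fold of 10. By these loose limits 28 of the 29 stayed within, which says little about robustness. The exception was the number of peaks, which was 9 in place of 14 when only peaks at or above the list's median −log10 p were kept, since fewer peaks enter by construction. Under that threshold 9 of the 10 genes kept a peak (without UMPS), and 8 did at the upper quartile (without UMPS and IMPDH2). A fold of at least 8 was found at 42.9% of the 14 peaks, against 28.9% of all peaks, and a fold of at least 15 at 28.6%, against 4.37%. No paired analysis was possible because there was 1 library of each kind, and no library could be left out. The list holds no peak with a pileup under 5 fragments or a −log10 p under 4.00, and binding below the authors' thresholds was not analysed here.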

Other observations

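Other genes of nucleotide synthesis and salvage were described by promoter sequence only. Of 7 further de novo genes with a RefSeq window (PRPS1, PRPS2, ADSS1, ADSS2, IMPDH1, DHODH and CTPS2), 1 held CACGTG, namely DHODH, the dihydroorotate dehydrogenase of pyrimidine synthesis. Of 8 salvage and kinase genes (HPRT1, APRT, ADK, UCK1, UCK2, UCKL1, CMPK1 and GUK1), 1 held it, namely UCKL1. In all windows of protein-coding genes the share was 8.34%. CACGCG was present at ADSS2 and APRT (1 of 7 and 1 of 8, against 14.3%), and CATGTG at 0 of 7 and 0 of 8, against 8.93%. GGGCGG was present in 6 of the 7 and 7 of the 8, against 56.3%, CANNTG in 3 and 5, against 65.1%, and CCAAT in 2 and 2, against 34.7%. These counts are too small to set either group apart from other genes. Their MYC peaks were not analysed here.

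Beyond 5 kb of IMPDH2, 3 peaks stood close together 7053, 7361 and 7849 bp downstream of its start, with folds of 5.54, 6.64 and 8.65 against 6.04 for the peak at IMPDH2 itself. On GRCh38.p14 the RefSeq starts of DALRD3 and NDUFAF3 lie 7277 to 8946 bp downstream of the IMPDH2 start, taken here as the end of its gene record. A peak 16003 bp upstream of GMPS had 14 fragments over a background of 3.30 and a fold of 3.49.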
